A study of Mus musculus with 24 samples.

Results

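H3K4me3, the trimethylated lysine 4 of histone H3, was compared between 2 sorted kinds of mouse mammary basal cell, the double-positive Lgr5+Tspan8hi cells and the double-negative Lgr5-Tspan8- cells. The comparison used 4 libraries, 2 of each kind, chosen by their labels out of 24 labelled samples, of which 16 had counts and 8 were H3K4me3 libraries. All cells came directly from the mammary glands of C57BL/6 females, had no treatment and differed only in the gate on Lgr5 and Tspan8 used in flow sorting. The labels name no transgene, age or number of animals, and they do not tie the replicates to different animals, so the p-values measure the spread between these libraries, which may be technical. The 4 other H3K4me3 libraries, from Lgr5+Tspan8- and Lgr5-Tspan8hi cells, entered the fit to estimate that spread, and 8 H3K27me3 libraries from the same numbered cell samples gave a second readout. The 8 input samples were not used here, and levels are therefore not divided by an input signal.

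H3K4me3 marks the nucleosomes around the start sites of genes that are active or poised for activity, whereas H3K27me3, laid down by Polycomb repressive complex 2, spreads over silenced genes. Some promoters carry both marks, and a shift of balance between them often goes with a change in how readily a gene is expressed. Basal cells form the outer layer of the mammary epithelium and include contractile myoepithelial cells and cells with regenerative capacity. Lgr5 is a receptor for R-spondins, which raise Wnt signalling, and Tspan8 is a tetraspanin of the cell surface.

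The double-positive libraries held 2356047 and 3260828 counts and the double-negative ones 1713771 and 4740371, within a range of 1472251 to 4740371 over the 8 H3K4me3 libraries. Replicates of both kinds differed by more than sampling noise (chi-square per degree of freedom 3.99 and 3.07). At a common total of 1472251 counts, 11.9% and 12.4% of genes were at 0 in the double-positive libraries and 8.41% and 5.11% in the double-negative ones, and 1 library stood apart, Lgr5-Tspan8hi replicate 1 at 21.6%. Genes of low level lay lower in the double-positive libraries, with a median log2 fold change of -0.20 over the 1451 genes between 10 and 20 CPM (a gene's counts scaled to a common library total), whereas the 2320 genes above 100 CPM had a median of 0.06. The part that this shift plays in the results was not tested beyond the use of offsets that remove it, whose count is given below. Krt5 and Krt14, keratins of basal cells, carried 95.9 to 150 CPM in all 4 libraries. Krt8 and Gata3, genes of the inner, luminal layer, carried 96.8 to 108 CPM and 243 to 281 CPM there. The level of the mark at these genes thus did not tell basal from luminal cells. Of 19 tested basal and myoepithelial genes, 0 passed in edgeR, and 1 had an unadjusted p under 0.05.

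Of 19009 genes tested, H3K4me3 was higher in double-positive cells at 2 (0.0105% of those tested) and lower at 18 (0.0947%), by edgeR at an adjusted p under 0.05. The genes with more H3K4me3 were Tspan8 itself and Tbx3os2, a long noncoding RNA. The 18 with less fell by 1.17 to 2.58 on the log2 scale and included Pde3a, Tbx2, Dcn and several genes of synaptic adhesion. Genes whose starts lie within 2 kb share their counts, as Tbx2 does with 2610027K06Rik, Lrfn5 with Gm20063 and Ptprt with 9430021M05Rik, so that the 20 genes stand for 17 promoters, 2 higher and 15 lower. Before adjustment 1075 of the 19009 genes had a p under 0.05, close to the share of 0.05 that a lack of any difference would give. The count rested on single libraries: 4 genes passed when the second double-negative library was left out, 6 and 8 when the second or first double-positive library was, and 48 or 49 when Lgr5-Tspan8hi replicate 1 or 2 was. With offsets that remove the shift with level it was again 20, of which 19 were shared.

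**Figure D1:**
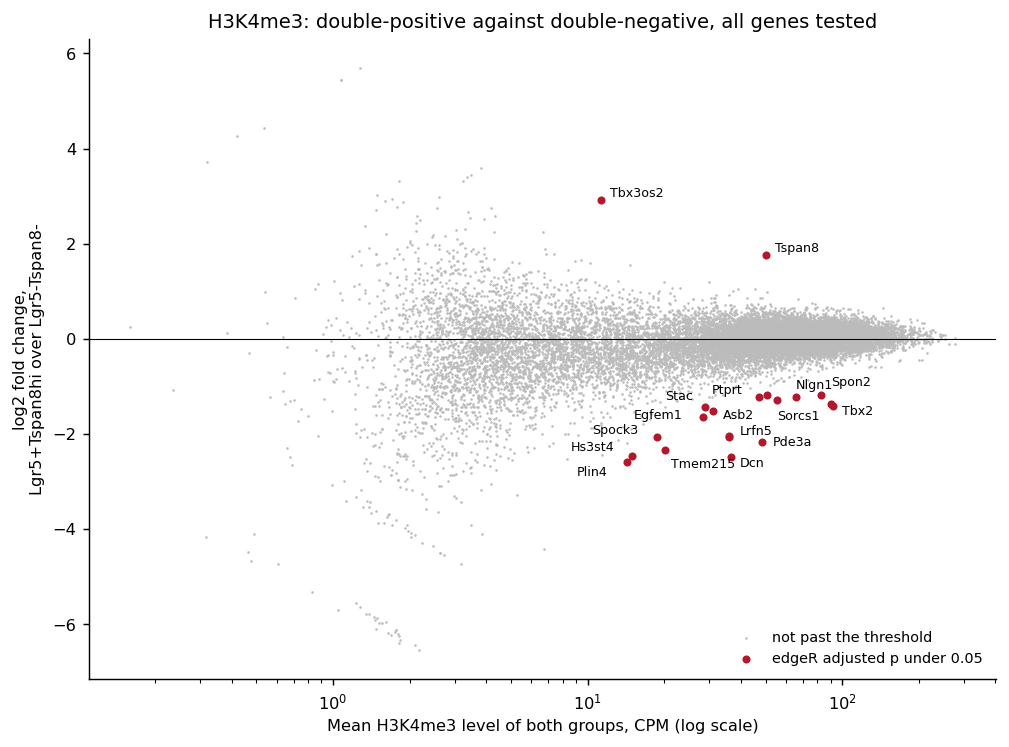
Each point is 1 of the 19009 genes tested, placed by its mean H3K4me3 level in the double-positive and double-negative libraries (CPM, log axis) and its log2 fold change; red points are the 20 genes with an edgeR adjusted p under 0.05, of which 3 that share a start with a labelled gene carry no name. The 18 lower genes stand below the cloud between a log2 fold change of -1.17 and -2.58, and Tbx3os2 (2.91) and Tspan8 (1.76) stand above it.

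Tspan8, whose protein was used to sort the cells, checked the labels. Its H3K4me3 level was 69.4 and 84.4 CPM in the double-positive libraries and 25.1 and 21.3 CPM in the double-negative ones. The Lgr5-Tspan8hi libraries stood with the double-positive ones at 90.2 and 78.8 CPM, and the Lgr5+Tspan8- libraries with the double-negative ones at 31.0 and 23.3 CPM. The level thus followed the sorted protein, with no overlap between Tspan8hi and Tspan8- libraries. The difference between double-positive and double-negative cells was 3.38-fold (log2 fold change 1.76 ± 0.25 SE, edgeR adjusted p = 1.96e-06). At Lgr5, the other sorting gene, the levels were 61.7 and 94.5 CPM against 51.9 and 72.8 CPM, which overlapped (log2 fold change 0.30 ± 0.20 SE, edgeR adjusted p = 0.961). The Lgr5+Tspan8- libraries stood at 95.9 and 100 CPM and the Lgr5-Tspan8hi ones at 74.3 and 80.8 CPM. Unlike at Tspan8, libraries on either side of the Lgr5 gate thus overlapped.

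Tbx3os2 lies on chr5:119685088-119691218, minus strand, and its start is 20.7 kb from that of Tbx3, a T-box factor needed for the mammary placode. It carried 21.4 and 19.1 CPM in double-positive, 9.48 and 20.5 CPM in Lgr5+Tspan8-, 5.01 and 9.85 CPM in Lgr5-Tspan8hi and 1.75 and 3.17 CPM in double-negative libraries. Both double-positive libraries were above both double-negative ones, which were little above the background: 1108 olfactory receptor genes, silent outside the nose, averaged 1.30 and 1.58 CPM in the same double-negative libraries. The log2 fold change was 2.91 ± 0.62 SE (edgeR adjusted p = 0.00881). This call ended in limma-voom (adjusted p = 0.0963) and when any 1 of the 4 libraries compared was left out. Tbx3 itself carried 143 and 167 CPM against 125 and 136 CPM, and did not pass (log2 fold change 0.25 ± 0.16 SE, edgeR adjusted p = 0.956).

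The RefSeq promoter table of GRCm38.p6, which gives 250 bases before to 50 after a start, held an entry for 15 of the 20 genes. Those below are printed to show the promoters at which the mark moved: both higher genes, Lrfn5 and Ptprt with less H3K4me3 and more H3K27me3, and Asb2 from the contractile list. Capitals mark every CG pair, the site of DNA methylation in mammals. Tspan8 is from chr10:115817034-115817333 (plus strand), around a start 467 bases inside the annotated gene, Tbx3os2 from chr5:119691169-119691468 (minus), Lrfn5 from chr12:61522917-61523216 (plus, 316 bases inside the gene), Ptprt from chr2:162661098-162661397 (minus) and Asb2 from chr12:103355952-103356251 (minus).
Tspan8: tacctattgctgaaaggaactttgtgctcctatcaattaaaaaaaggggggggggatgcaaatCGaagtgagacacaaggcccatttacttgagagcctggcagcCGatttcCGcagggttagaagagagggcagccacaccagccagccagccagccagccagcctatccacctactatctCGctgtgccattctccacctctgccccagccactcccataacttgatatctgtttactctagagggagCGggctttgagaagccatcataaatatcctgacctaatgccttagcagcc
Tbx3os2: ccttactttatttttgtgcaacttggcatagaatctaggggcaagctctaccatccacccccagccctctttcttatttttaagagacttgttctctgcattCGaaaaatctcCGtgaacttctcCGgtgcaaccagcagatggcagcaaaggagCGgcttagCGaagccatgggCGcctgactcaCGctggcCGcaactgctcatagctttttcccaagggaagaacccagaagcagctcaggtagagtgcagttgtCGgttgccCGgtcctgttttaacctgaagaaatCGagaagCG
Lrfn5: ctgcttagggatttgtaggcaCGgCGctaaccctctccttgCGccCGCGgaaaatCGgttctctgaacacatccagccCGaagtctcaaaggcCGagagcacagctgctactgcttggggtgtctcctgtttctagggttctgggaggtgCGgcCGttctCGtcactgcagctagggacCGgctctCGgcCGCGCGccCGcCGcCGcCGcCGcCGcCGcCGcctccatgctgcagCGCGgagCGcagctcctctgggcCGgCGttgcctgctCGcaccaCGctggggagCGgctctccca
Ptprt: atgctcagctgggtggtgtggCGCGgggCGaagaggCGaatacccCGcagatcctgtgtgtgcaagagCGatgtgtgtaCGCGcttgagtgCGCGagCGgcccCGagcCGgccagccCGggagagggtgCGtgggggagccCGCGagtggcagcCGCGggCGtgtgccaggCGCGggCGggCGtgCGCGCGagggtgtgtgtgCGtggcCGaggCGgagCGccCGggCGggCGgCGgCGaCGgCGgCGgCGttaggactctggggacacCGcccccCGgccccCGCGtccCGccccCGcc
Asb2: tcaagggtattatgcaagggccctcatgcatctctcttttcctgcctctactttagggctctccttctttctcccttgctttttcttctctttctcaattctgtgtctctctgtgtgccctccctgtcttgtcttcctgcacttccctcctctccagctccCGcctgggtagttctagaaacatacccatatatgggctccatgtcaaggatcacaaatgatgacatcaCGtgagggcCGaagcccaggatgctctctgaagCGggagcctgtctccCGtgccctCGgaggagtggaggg
The promoters of Ptprt and Lrfn5 hold 46 and 32 CG pairs, those of Tbx3os2, Asb2 and Tspan8 hold 12, 6 and 5, and the median of all 27025 promoters in the table was 7. A search of both strands for TATAAA (the TATA box), GGGCGG (bound by Sp factors), CACGTG (an E-box), CATTCC (bound by Tead factors), CTTTGAT (bound by Tcf and Lef factors) and the CArG box, the site of serum response factor at contractile genes, was read for presence, not for the number of matches. GGGCGG was present in Ptprt (as in 35.9% of all promoters), and CACGTG and the CArG box were present in Asb2 (as in 7.22% and 1.57%). A match is a description of the letters only. A comparison of base composition over the 20 genes is void, since 75% of them, fewer than 80%, have an entry. Pde3a, Dcn, Tbx2, Spon2 and 2610027K06Rik have none.

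**Figure D2:**
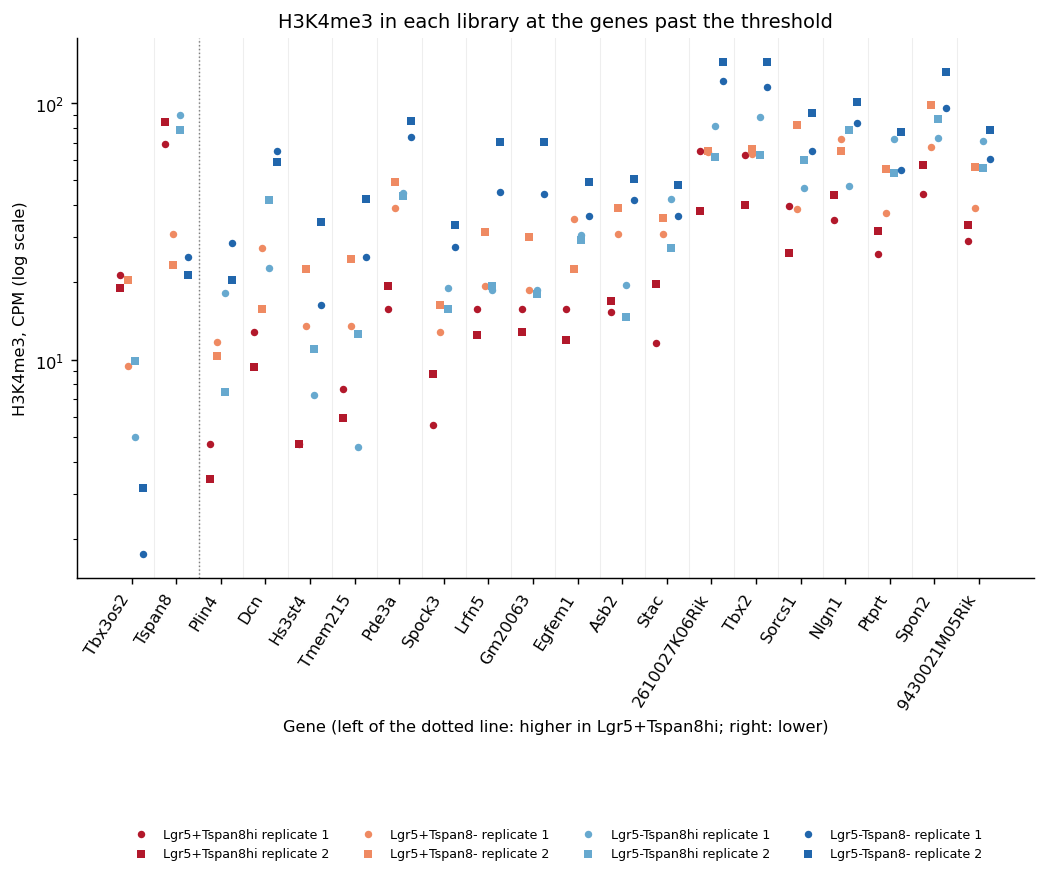
H3K4me3 in CPM (log axis) in each of the 8 libraries at the 20 genes past the threshold, with colour for the subpopulation and shape for the replicate; each point is 1 library. At every gene both double-positive libraries lie on one side of both double-negative ones, and for the 18 lower genes most single-positive libraries fall between them.

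Pde3a, which encodes a phosphodiesterase that breaks down cyclic AMP and cyclic GMP (chr6:141249269-141506862, plus strand), had the smallest p of the comparison. Its start carried 15.8 and 19.4 CPM in double-positive and 73.5 and 84.9 CPM in double-negative libraries. The 4 single-positive libraries, from 39.0 to 49.3 CPM, lay between the groups without touching either. The level was 4.48-fold lower in double-positive cells (log2 fold change -2.16 ± 0.27 SE, edgeR adjusted p = 3.99e-08). Of 16 tested phosphodiesterase genes for cyclic nucleotides Pde3a alone passed, and its close relative Pde3b stood at 56.1 and 60.7 against 57.7 and 73.5 CPM (log2 fold change -0.18 ± 0.23 SE, edgeR adjusted p = 0.992). The list's median was -0.18, beside 0.0 for all genes tested.

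Tbx2, a T-box repressor of mammary and other epithelial development (chr11:85832615-85841948, plus strand), carried 63.0 and 40.0 CPM in double-positive and 115 and 144 CPM in double-negative libraries. The single-positive libraries stood at 62.7 to 88.0 CPM, the lowest of them level with the upper double-positive library and all below both double-negative ones. The level was 2.57-fold lower (log2 fold change -1.36 ± 0.20 SE, edgeR adjusted p = 5.29e-06), and 2610027K06Rik, the noncoding gene that runs the other way from the same start region, gave -1.40 ± 0.21. Of 13 T-box genes tested, Tbx2 was the 1 that passed. The next by p were Tbx1, at 20.6 and 32.2 against 45.5 and 42.2 CPM (log2 fold change -0.71), and Tbx5, at 6.85 and 10.9 against 16.9 and 23.2 CPM (-1.17), neither past the threshold (edgeR adjusted p = 0.745 and 0.761). The list's median was -0.40, with 10 of 13 members below 0, beside 49.3% of all genes tested.

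Asb2 encodes the subunit of a ubiquitin ligase that directs filamins, which crosslink actin, to degradation (chr12:103321142-103356001, minus strand). It carried 15.4 and 16.9 CPM in double-positive and 42.0 and 50.7 CPM in double-negative libraries. The Lgr5-Tspan8hi libraries, at 19.6 and 14.6 CPM, overlapped the double-positive ones, and the Lgr5+Tspan8- libraries, at 31.0 and 39.0 CPM, came just under the double-negative ones. The log2 fold change was -1.52 ± 0.34 SE (edgeR adjusted p = 0.0157). Stac, an adaptor protein with an SH3 domain, followed with 11.6 and 19.7 against 36.2 and 47.9 CPM (log2 fold change -1.42 ± 0.33 SE, edgeR adjusted p = 0.0379). Both calls were near the limit and ended when any 1 of the 4 libraries compared was left out, and also when the counts were thinned to the lowest library total. That of Stac ended with the level offsets and without Lgr5+Tspan8- replicate 2 too.

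Of 26 contractile and filamin-linked genes, Asb2 alone passed, 16 lay below 0 and the median was -0.13. An unadjusted p under 0.05 was found at 8 of the 26, beside 1075 of all 19009 genes. Of the 8, Smtn and Flnc were higher in double-positive cells and the others lower. The list was chosen with earlier results of these data known, so this count is a description and cannot show an excess. Filip1l, a relative of the filamin-interacting gene Filip1, stood at 43.3 and 39.1 against 76.4 and 70.7 CPM (log2 fold change -0.83, edgeR adjusted p = 0.16), and Fbxl22, an F-box gene, at 33.8 and 32.2 against 65.3 and 58.9 CPM (-0.91, edgeR adjusted p = 0.251). The libraries of neither gene overlapped between the groups, an order below that held for 18.4% of all genes. The Lgr5-Tspan8hi libraries were around the double-positive level at Filip1l (37.8 and 47.3 CPM) and below both double-positive libraries at Fbxl22 (25.5 and 25.2 CPM). Flnc, the filamin of muscle, ran the other way with 87.8 and 89.1 against 54.8 and 66.9 CPM (log2 fold change 0.52, edgeR adjusted p = 0.662).

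Dcn encodes decorin, a proteoglycan that binds collagen (chr10:97479500-97518163, plus strand). Its start had 12.8 and 9.38 CPM in double-positive, 27.3 and 15.8 CPM in Lgr5+Tspan8-, 22.8 and 41.8 CPM in Lgr5-Tspan8hi and 65.3 and 58.9 CPM in double-negative libraries. All 6 libraries with Lgr5 or Tspan8 lay below both double-negative ones, and the double-positive pair lay lowest. The difference was 5.61-fold (log2 fold change -2.49 ± 0.34 SE, edgeR adjusted p = 8.84e-07).

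Dcn is also a marker of fibroblasts, which a basal gate can hold. Of 12 fibroblast markers 11 were tested, with Dcn the 1 that passed, 8 below 0 and a median of -0.32 that became -0.03 with the level offsets. Their summed level was 207 and 212 CPM in double-positive and 307 and 316 CPM in double-negative libraries, and without Dcn 194 and 202 against 242 and 257 CPM, so that the groups stayed apart. Members differed from each other. Col3a1, a fibrillar collagen, had 3.43 and 3.13 against 19.2 and 7.81 CPM (log2 fold change -2.0 ± 0.87 SE, edgeR adjusted p = 0.796), and Twist2, a mesenchymal transcription factor, 34.7 and 30.0 against 40.2 and 55.5 CPM (-0.59 ± 0.28 SE, edgeR adjusted p = 0.842). Pdgfra and Col1a1 stood at 40.7 and 32.8 against 35.6 and 37.4 CPM and at 33.4 and 41.6 against 31.5 and 34.4 CPM (log2 fold change 0.00 ± 0.30 and 0.18 ± 0.31 SE). Prrx1, a mesenchymal homeobox factor, had 38.5 and 57.9 against 72.9 and 90.3 CPM and did not pass (log2 fold change -0.76, edgeR adjusted p = 0.251). In sorted bulk cells fewer cells with the mark and less mark per cell cannot be told apart. Of the small leucine-rich proteoglycans, decorin's family, 10 were tested, 1 passed, and the median was -0.07; Fmod, fibromodulin, had 7.71 and 24.7 against 37.3 and 29.3 CPM (log2 fold change -0.98, edgeR adjusted p = 0.634).

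Spock3 and Spon2 encode the secreted matrix proteins testican 3 and spondin 2. Spock3 had 5.57 and 8.76 CPM in double-positive and 27.4 and 33.6 CPM in double-negative libraries (log2 fold change -2.07 ± 0.44 SE, edgeR adjusted p = 0.00881). Spon2, named because the 18 genes are few although its change ranked below those the naming rule takes, had 44.1 and 57.5 against 95.6 and 132 CPM (-1.17 ± 0.20 SE, edgeR adjusted p = 0.000194). Hs3st4, a sulfotransferase that modifies heparan sulfate, had 4.71 and 4.69 against 16.3 and 34.4 CPM (-2.46 ± 0.51 SE, edgeR adjusted p = 0.007). The pair of double-negative libraries differed from each other by more than the double-positive pair at Hs3st4, and its call ended without Lgr5-Tspan8- replicate 2 or either Lgr5+Tspan8hi replicate, and when the counts were thinned to the lowest library total. Egfem1, named for its EGF-like and EMI domains, had 15.8 and 11.9 against 36.2 and 49.2 CPM (-1.65 ± 0.34 SE, edgeR adjusted p = 0.00755).

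Synaptic adhesion genes, best known from the contacts of nerve cells, gave 3 of 19 tested members past the threshold, beside 20 of all 19009 genes. The list was chosen with earlier results of these data known, so the count is a description and cannot show an excess. Lrfn5, an adhesion protein with leucine-rich repeats (chr12:61522851-61857928, plus strand), had 15.8 and 12.5 CPM in double-positive and 44.9 and 70.5 CPM in double-negative libraries. The single-positive libraries, from 18.7 to 31.5 CPM, lay between the groups. The log2 fold change was -2.06 ± 0.34 SE (edgeR adjusted p = 8.32e-05), and Gm20063, which shares the start region, gave -2.03 ± 0.34. Nlgn1, neuroligin 1, had 35.1 and 43.8 against 83.4 and 101 CPM (-1.23 ± 0.22 SE, edgeR adjusted p = 0.000663). Ptprt, a receptor tyrosine phosphatase (chr2:161521988-162661147, minus strand), had 25.7 and 31.6 against 54.8 and 77.0 CPM (-1.22 ± 0.25 SE, edgeR adjusted p = 0.008), and 9430021M05Rik on the other side of the start gave -1.17 ± 0.25.

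Over the whole synaptic list, these 3 genes included, the median was -0.23 and 14 of 19 members lay below 0. Nlgn2, a neuroligin of the same family, stood at 91.2 and 104 against 79.9 and 97.7 CPM (log2 fold change 0.12 ± 0.18 SE). Cntn2, a contactin, had 45.8 and 63.5 against 30.3 and 34.8 CPM (log2 fold change 0.74 ± 0.26 SE, edgeR adjusted p = 0.517). Outside the list Sorcs1, a sorting receptor of neurons, had 39.8 and 26.0 against 65.3 and 91.4 CPM (-1.29 ± 0.25 SE, edgeR adjusted p = 0.00318), a call that DESeq2 did not make (adjusted p = 0.632).

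Plin4, a coat protein of lipid droplets, had 4.71 and 3.44 CPM against 28.6 and 20.5 CPM (log2 fold change -2.58 ± 0.55 SE, edgeR adjusted p = 0.00881). The single-positive libraries, from 7.49 to 18.2 CPM, lay between the groups. The call ended in limma-voom (adjusted p = 0.0706) and when any 1 of the 4 libraries compared was left out. Of 10 adipocyte markers 6 were tested and Plin4 alone passed. The list's median was -0.41, with 5 of 6 below 0 and 4 of 6 with both double-positive libraries below both double-negative ones (18.4% of all genes). The share depended on level, at 30.6% of genes between 10 and 20 CPM and 10.9% of those above 100 CPM. Its summed level was 253 and 294 CPM in double-positive and 326 and 332 CPM in double-negative libraries. Lpl, lipoprotein lipase, had 27.8 and 23.5 against 32.1 and 45.4 CPM (log2 fold change -0.63 ± 0.30 SE, edgeR adjusted p = 0.857), and Lep, leptin, 8.14 and 12.2 against 18.1 and 21.1 CPM (-0.94 ± 0.50 SE, edgeR adjusted p = 0.884). Pparg, a nuclear receptor that drives adipocyte differentiation, stood at 45.4 and 42.2 against 51.9 and 48.8 CPM (log2 fold change -0.20 ± 0.26 SE). The part of adipocytes in the result was not tested. Tmem215, a transmembrane protein gene, had 7.71 and 5.94 against 25.1 and 42.2 CPM (-2.33 ± 0.46 SE, edgeR adjusted p = 0.00318), and Lgr5-Tspan8hi replicate 1, the library with many genes at 0, lay lower still at 4.56 CPM.

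Past the threshold there were no more genes with a higher level. The next by p were Slpi, a secreted protease inhibitor, at 58.2 and 77.3 against 32.1 and 35.7 CPM (log2 fold change 0.99 ± 0.24 SE, edgeR adjusted p = 0.0568), and Ptx3, a soluble pattern recognition protein, at 85.2 and 106 against 50.2 and 61.6 CPM (0.76 ± 0.19 SE, edgeR adjusted p = 0.0969). Mos, a kinase of oocytes, gave 1.04 ± 0.26 SE and Nfatc2, a transcription factor activated by calcineurin, 0.83 ± 0.22 SE (edgeR adjusted p = 0.0969 and 0.118). The libraries of the groups did not overlap at any of these 4 genes, an order above that held for 18.5% of all genes. Slpi and Ptx3 were above both double-negative libraries in all 4 single-positive ones, at 49.2 to 74.0 CPM and 89.0 to 110 CPM.

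Just inside the threshold stood Plin4, Asb2 and Stac (adjusted p = 0.00881, 0.0157 and 0.0379), and just outside, in edgeR, Emb, a cell surface relative of basigin, at a log2 fold change of -0.86 (adjusted p = 0.0561), Slpi, and H60b, a ligand of a natural killer cell receptor, at -2.18 (0.0597). Rspo2, an R-spondin and so a ligand of Lgr5, stood at a mean of 3.59 against 19.2 CPM (log2 fold change -2.43 ± 0.60 SE, edgeR adjusted p = 0.0803), and Hgf, hepatocyte growth factor, at 47.3 against 87.4 CPM (-0.88 ± 0.22 SE, edgeR adjusted p = 0.092); these last genes were singled out after their values were seen, except Slpi.

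All 20 genes past the threshold had libraries that did not overlap between the groups, 2 with both double-positive libraries above and 18 with both below. Such an order held for 18.5% and 18.4% of all genes tested. The order below held for 30.6% of genes between 10 and 20 CPM and 10.9% of those above 100 CPM. The means of both single-positive kinds lay between the double-positive and double-negative means at 19 of the 20, against 16.3% of all genes, the exception being Tspan8. The double-positive and double-negative libraries themselves chose these genes, so the order is a description. At the 18 lower genes the median log2 difference was -0.74 from double-negative to Lgr5+Tspan8- cells and -0.84 from double-negative to Lgr5-Tspan8hi cells, and from these single-positive cells to double-positive cells it was -0.91 and -0.84. All 4 of these differences were below 0 at each of the 18 genes, they share libraries, and their medians over all genes were between 0.0 and 0.01.

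The interaction asked whether the double-positive difference departed from the sum of the steps for Lgr5 and for Tspan8. Of 19009 genes 0 passed in edgeR (0.0%). An unadjusted p under 0.05 was found at 799, fewer than the share of 0.05 that a lack of any departure would give. DESeq2 and limma-voom called 0 as well. Among the 20 genes the smallest unadjusted p was 0.061, at 2610027K06Rik. With standard errors of 0.29 to 0.84 in log2 units at these genes, departures well above that size could go undetected. The count of 0 therefore does not show that the steps add up. The smallest p of all genes belonged to Tmem200c, a transmembrane protein gene (-1.38 ± 0.32 SE, edgeR adjusted p = 0.626).

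H3K27me3 was measured in other immunoprecipitations of the same numbered samples, and it ran the other way at most of these genes. Over all 22099 genes tested, H3K27me3 was higher in double-positive cells at 77 (0.348%) and lower at 211 (0.955%) in edgeR. With library totals alone the split was 99 to 144 and with level offsets 121 to 149, and the total of 288 was moved over 1.5 times by each of the 8 libraries left out (22 to 1333). Of the 18 genes with less H3K4me3, 17 had an H3K27me3 log2 fold change above 0, some barely, beside 53.1% of all genes. Past the threshold 10 were higher and 0 lower. The median H3K27me3 log2 fold change of the 18 was 0.74, beside 0.03 over all genes. At 14 of the 18 both double-positive libraries lay above both double-negative ones, beside 23.3% of all genes. The 10 were Pde3a, Tbx2, 2610027K06Rik, Lrfn5, Nlgn1, Sorcs1, Ptprt, Spock3, Asb2 and Stac, of which Tbx2 and 2610027K06Rik share their H3K4me3 counts.

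At Tbx2 H3K27me3 was 91.6 and 105 CPM in double-positive and 33.5 and 28.8 CPM in double-negative libraries, with 73.3 to 97.8 CPM in the single-positive ones (log2 fold change 1.66 ± 0.18 SE, edgeR adjusted p = 5.14e-06). At Pde3a it was 312 and 343 against 135 and 122 CPM, with 256 to 272 CPM in the single-positive libraries (1.35 ± 0.13 SE). Both genes had double-negative libraries below all 6 others. At Ptprt it was 1780 and 1890 against 1130 and 1100 CPM (0.72 ± 0.10 SE, edgeR adjusted p = 0.000249), at Stac 185 and 217 against 114 and 96.6 CPM (0.94 ± 0.14 SE, edgeR adjusted p = 0.0011) and at Asb2 33.4 and 31.7 against 18.7 and 14.1 CPM (1.00 ± 0.24 SE, edgeR adjusted p = 0.0371). H3K27me3 counts grow with the length of a gene, so these levels are not compared between genes. Of 14 T-box genes tested for H3K27me3, Tbx2 was the 1 above 0. The other 13 lay below 0, beside 46.9% of all genes, and the median was -0.34. Their lower level was not particular to this family. Of developmental transcription factors 30 of 30 lay below 0 (median -0.48), and of Hox genes 37 of 39 (-0.49). The summed T-box level overlapped between the groups, at 1370 and 1590 against 1550 and 1980 CPM. Tbx1 and Tbx5 had H3K27me3 log2 fold changes of -0.42 and -0.34.

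The exceptions were as clear. Dcn had 22.0 and 22.2 against 24.3 and 14 CPM of H3K27me3, and Hs3st4 had 751 and 793 against 722 and 811 CPM, with groups that overlapped (log2 fold change 0.23 ± 0.27 and 0.01 ± 0.11 SE, edgeR adjusted p = 0.82 and 0.986). Spon2 carried 3.49 CPM or less in all 8 libraries. The 2 genes with more H3K4me3 both had less H3K27me3, neither past the threshold: Tspan8 with 14.6 and 11.0 against 29.1 and 21.5 CPM (-0.97 ± 0.28 SE, edgeR adjusted p = 0.083) and Tbx3os2 with 9.31 and 2.80 against 11.6 and 9.61 CPM (-0.78 ± 0.45 SE). At Mos, just short of the threshold for H3K4me3, H3K27me3 fell past it, from 21.0 and 18.3 CPM in double-negative to 6.15 and 6.72 CPM in double-positive libraries (-1.61 ± 0.33 SE, edgeR adjusted p = 0.0122).

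Read from the H3K27me3 side, 66 of the 77 genes with more H3K27me3 were tested for H3K4me3. Of these 61 (92.4%) had less H3K4me3 in double-positive cells, with a median log2 fold change of -0.57, and 44 had both double-positive libraries below both double-negative ones, beside 18.8% of all genes tested in both marks and 19.5% of those with less H3K27me3. All 16354 genes tested in both marks gave 49.4% below 0 and a median of 0.0. Of the 190 tested genes with less H3K27me3, 44.7% had less H3K4me3 and the median was 0.03. Across all genes the fold changes of the marks had a Spearman's rho of -0.01, a description over genes, which are not independent replicates. The number of genes lower in H3K4me3 and higher in H3K27me3 was chosen after the data were seen, and 10 became 1 to 3 without Lgr5+Tspan8hi replicate 1 (3), Lgr5+Tspan8hi replicate 2 (1) or Lgr5-Tspan8- replicate 2 (2).

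**Figure D3:**
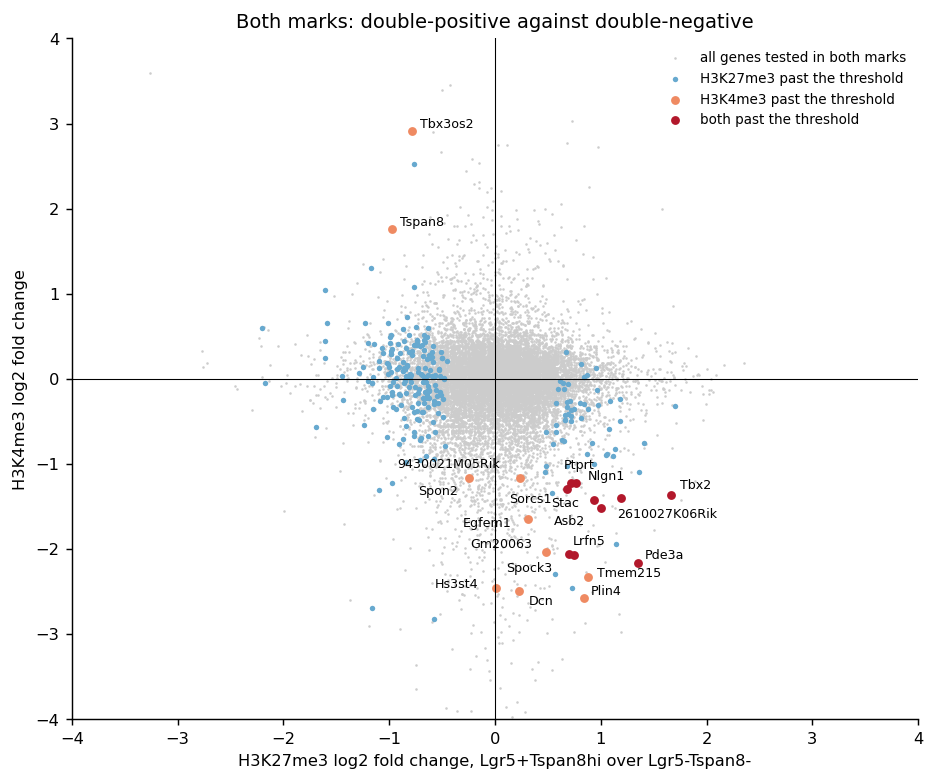
Log2 fold change of H3K27me3 (x axis) and H3K4me3 (y axis) between double-positive and double-negative cells, with 1 point per gene tested in both marks and colours for the genes past the threshold in either mark; axes stop at 4, which leaves out 39 genes. The 10 genes past the threshold in both marks lie in the lower right, with less H3K4me3 and more H3K27me3.

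The comparison did not use gene length. The 20 genes had a median of 39.7 kb against 19.1 kb for all genes tested, and 9 of 20 exceeded 100 kb, against 12.1% of all genes. Ptprt, Nlgn1, Egfem1, Sorcs1 and Hs3st4 were among these long genes, whereas Tbx2 spans 9334 bases. By biotype 16 were protein coding and 4 were long noncoding RNAs, and 0 were on chromosome X. Their H3K4me3 levels, which come from the counts compared, were at a median percentile of 38.2 and a range of 20.4 to 84.3. H3K27me3 per kb was at a median percentile of 60.0, and 4 of 20 were above the 75th, among them Tbx2 at 97.7.

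Other gene groups gave few members past the threshold. For their counts at an unadjusted p under 0.05, here and below, the figure over all genes was 1075 of 19009. Of 23 tetraspanin genes tested Tspan8 alone passed, and the median was 0.04. All 12 pan-luminal markers, genes of the inner epithelial layer, had log2 fold changes above 0, with a median of 0.31 and 7 of 12 with both double-positive libraries above both double-negative ones (18.5% of all genes), but 0 passed in edgeR and 2 had an unadjusted p under 0.05. That order held for 23.5% of genes between 50 and 100 CPM and 27.2% of those above 100 CPM. Cldn7, a tight junction claudin, had 57.4 and 45.7 against 32.1 and 33.1 CPM (log2 fold change 0.65 ± 0.28 SE, edgeR adjusted p = 0.767) and Elf3, an epithelial transcription factor, 59.5 and 30.6 against 30.3 and 24.7 CPM (0.72 ± 0.31 SE). The summed pan-luminal level was 1010 and 966 CPM in double-positive and 849 and 860 CPM in double-negative libraries, while Krt8 stood at 107 and 108 against 96.8 and 106 CPM. The part of luminal cells in the results was not tested. Of the luminal progenitor list Tspan8 was again the 1 past the threshold of 12, with a median of -0.15, and of 11 hormone-sensing luminal genes 0 passed in edgeR, with 0 at an unadjusted p under 0.05.

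Pathway genes gave 0 past the threshold in edgeR among 20 of the Wnt, 15 of the Notch and 19 of the TGF-beta and BMP pathway, with medians of -0.16, -0.08 and 0.01 and 2, 1 and 3 members at an unadjusted p under 0.05. Fzd10, a Wnt receptor, had 68.9 and 94.5 against 102 and 132 CPM (log2 fold change -0.53 ± 0.18 SE, edgeR adjusted p = 0.514). Hes5, a Notch target, had 48.0 and 36.9 against 67.1 and 66.1 CPM (-0.66 ± 0.23 SE, edgeR adjusted p = 0.552). Id3, a BMP target, had 118 and 118 against 76.4 and 79.4 CPM (0.60 ± 0.18 SE, edgeR adjusted p = 0.252). None of the 3 genes, the smallest p of their lists, had overlapping groups. Over all genes both double-positive libraries lay above in 18.5% and below in 18.4%. Members differed in direction, with 14 of 20 Wnt, 9 of 15 Notch and 9 of 19 TGF-beta and BMP genes below 0. Sfrp1 of the Wnt list gave 0.60 ± 0.21 SE and Grem1 of the TGF-beta and BMP list -1.04 ± 0.44 SE, neither past the threshold.

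Proliferation genes had 0 of 18 past the threshold in edgeR, 3 at an unadjusted p under 0.05 and a median of -0.12. Of the 18, 10 lay below 0 and 8 above. Cdk1, the kinase that starts mitosis, had 25.7 and 30.0 against 60.1 and 47.7 CPM (log2 fold change -0.93 ± 0.29 SE, edgeR adjusted p = 0.346), and Mki67, a marker of cycling cells, 51.0 and 39.4 against 60.1 and 67.8 CPM (-0.52 ± 0.23 SE, edgeR adjusted p = 0.806). Mcm2 and E2f1 ran the other way, at 0.35 ± 0.26 and 0.35 ± 0.25 SE. Quiescence and cyclin-dependent kinase inhibitor genes also had 0 of 18, with 3 at an unadjusted p under 0.05 and a median of 0.04. Collagen and laminin genes had 0 of 21, with 5 at an unadjusted p under 0.05, a median of 0.07 and members in both directions: Col6a1 stood at 42.8 and 40.3 against 21.0 and 16.3 CPM (1.19 ± 0.33 SE, edgeR adjusted p = 0.15) and Lama1 at 67.7 and 64.1 against 95.1 and 107 CPM (-0.63 ± 0.19 SE, edgeR adjusted p = 0.278).

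Developmental transcription factors (30 tested), Hox genes (39), stem cell surface genes (20) and ribosomal protein genes (79) had 0 past the threshold in edgeR, with 1, 0, 2 and 4 members at an unadjusted p under 0.05 and medians of -0.10, -0.12, -0.01 and 0.05. Markers of other cells a gate could hold gave 0 past the threshold in edgeR for pericytes (10 tested, median -0.16), endothelium (9, 0.44), immune cells (4, -0.28), Schwann and neural cells (9, -0.16) and epidermal keratinocytes (6, -0.39), with 1, 0, 0, 0 and 1 at an unadjusted p under 0.05. Their summed levels overlapped between the groups for endothelial genes (174 and 82.2 against 130 and 99.5 CPM) and immune genes (42.7 and 54.8 against 59.5 and 53.4 CPM). They were lower in both double-positive libraries for pericyte (302 and 306 against 319 and 337 CPM), Schwann and neural (396 and 382 against 405 and 447 CPM) and keratinocyte genes (114 and 117 against 141 and 134 CPM). Their part in the results was not tested.

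**Figure D4:**
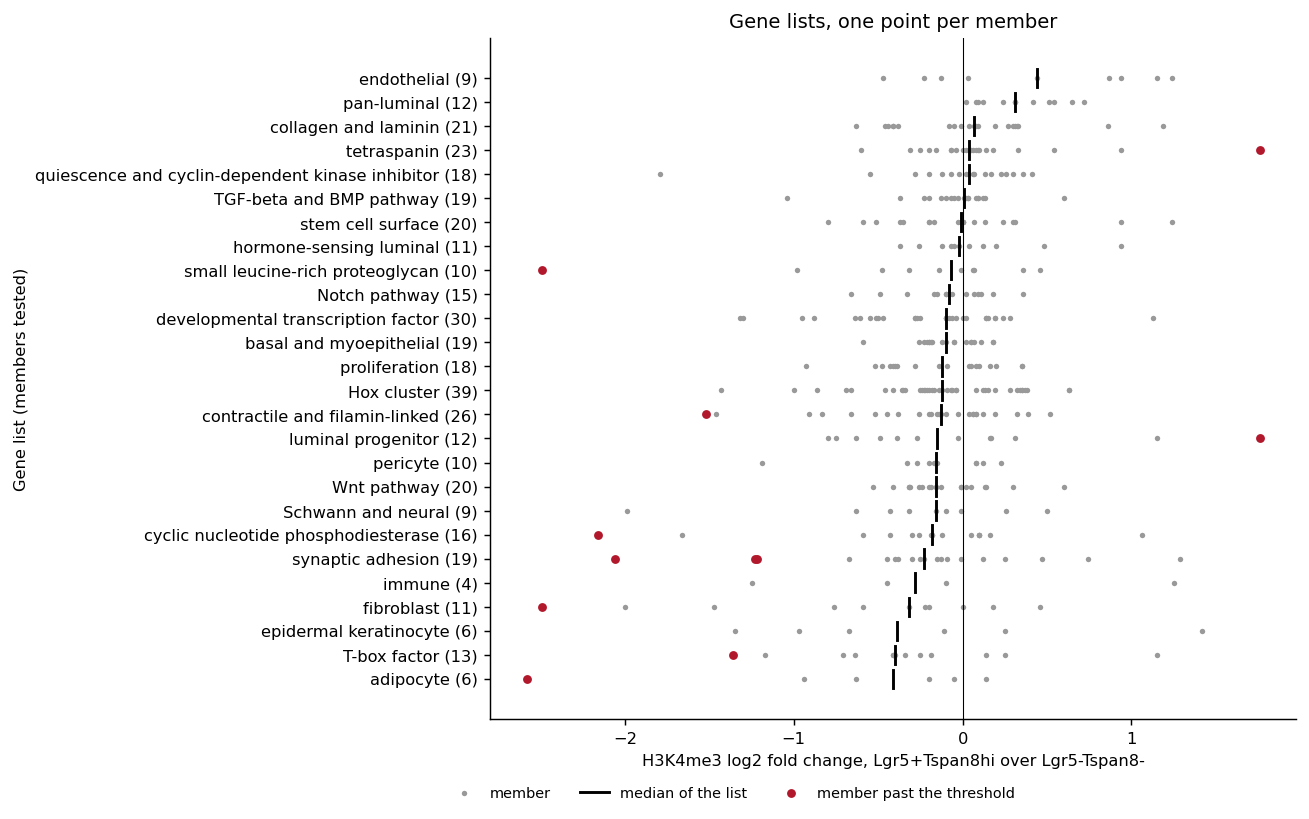
H3K4me3 log2 fold change between double-positive and double-negative cells for the members of each gene list, with 1 point per gene, red points past the threshold and a black bar at the list's median; the number of members tested is in brackets. The pan-luminal members all lie above 0 with a median of 0.31, and in the synaptic adhesion list 3 of 19 members are past the threshold. Lists and members were chosen with earlier results of these data known.

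Of the 20 genes, Tspan8, Pde3a and Dcn passed under all 18 other settings, which include leaving out each of the 8 libraries, and every gene kept its sign in each of them. The calls of the other 17 ended when at least 1 of the 4 libraries compared was left out. Thinning to the lowest total ended the calls of Hs3st4, Spock3, Asb2, Stac, Ptprt and 9430021M05Rik. Among double-negative libraries, 16 calls depended on replicate 2, the deepest library, and 5 on replicate 1. Among double-positive libraries, 15 depended on replicate 2 and 12 on replicate 1. At Tbx2 the adjusted p then reached 0.0747 at most, whereas at Nlgn1 it reached 0.599 and at Ptprt 1.0.

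**Figure D5:**
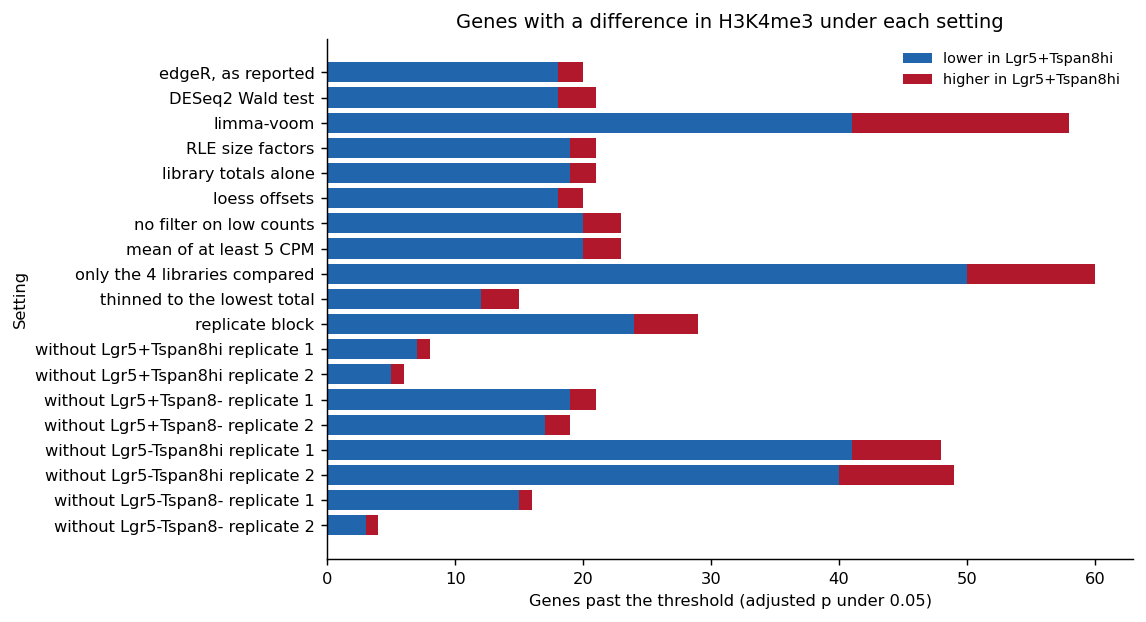
Number of genes past an adjusted p of 0.05 (x axis, from 0) under edgeR as reported and 18 other settings (y axis), with the part lower in double-positive cells in blue and the part higher in red. Counts run from 4 without Lgr5-Tspan8- replicate 2 to 60 with only the 4 libraries compared, and lower genes are the larger part in each.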

How the data were processed

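Sheared chromatin of sorted cells was immunoprecipitated for either mark, per the labels' protocols. For each library the authors deposited a raw read count per Entrez gene, without normalization, made with featureCounts on mm10, per the submitters' processing notes. Aligner, versions, annotation and counted region were not given in the sources used here. This region was read from the counts: neighbours with starts under 1 kb apart had a median H3K4me3 ratio of 1.01 over 1587 pairs and an H3K27me3 ratio of 2.38 over 312 pairs, and Spearman's rho of gene length with level was 0.17 and 0.71. H3K4me3 was therefore taken as counted around starts and H3K27me3 as counted along genes. Symbols and coordinates came from RefSeq tables of GRCm38.p6, the assembly mm10 denotes, for 25189 of 27080 genes.

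Each mark was fitted on its 8 libraries in edgeR 4.0.16 (R 4.3.3): filterByExpr, TMM scaling, a mean per subpopulation, the robust quasi-likelihood F test and Benjamini-Hochberg adjustment over all genes tested, with a threshold of 0.05. The biological coefficient of variation was 16% for H3K4me3 and 16.8% for H3K27me3, with 4 residual degrees of freedom, so the spread leaned on all genes. CPM values use TMM scaling, and standard errors came from the F statistic. Library totals, from 1472251 to 4740371 for H3K4me3 and 2639862 to 6972189 for H3K27me3, limit precision at low levels. Reads of overlapping genes (such as Pde3a with Gm10400 and Plin4 with Hdgfl2) cannot be told apart.

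Named genes were Lgr5 and Tspan8, the 14 largest changes each way past the threshold without overlap of libraries (predicted genes and clones left out; where fewer than 6 passed, the smallest p up to 6), up to 3 members of each list by p, up to 8 genes past the threshold in both marks and the smallest p of the interaction; not all are printed. Members and lists were chosen with earlier results of these data known. Lists were described by counts and medians, without a test. Other settings were DESeq2 1.42.0, limma-voom (limma 3.58.1), RLE factors, library totals, loess offsets of each library against mean level, no filter, a mean of at least 5 CPM, only the 4 libraries compared, counts thinned to the lowest total, the replicate number as a block, and each library left out.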

Additional observations from a re-analysis of the deposited data

How the results depend on the processing

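The H3K4me3 count of 20 genes was 58 in limma-voom (17 higher, 41 lower, or 70.7% lower against 90.0%), 60 with only the 4 libraries compared and 4 to 49 with 1 library left out; in 8 further settings it was 15 to 29. Thinning to the lowest total ended 6 of the 20 calls, limma-voom 2, DESeq2 1 and the level offsets 1. The H3K27me3 count of 288 was 665 in DESeq2, 757 in limma-voom, 501 without a filter, 150 with only the 4 libraries compared and 22 to 1333 with 1 library left out. The interaction count of 0 was 0 to 7 with 1 library left out (3 lacking the first Lgr5+Tspan8- library, 7 lacking the second Lgr5-Tspan8hi library). The 10 genes past the threshold in both marks were 6 after thinning and 1 to 11 with 1 library left out. The causes were not tested. When a library of a group is left out, the lone sample left is assumed to vary like the other groups.

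With the replicate number as a block, H3K4me3 differed at 29 genes and H3K27me3 at 955. The labels give same-numbered libraries no shared animal or day, and their deviations had correlations of -0.03 to 0.14. Such low values cannot exclude a shared animal or day, so whether the numbers pair the samples is unknown. Depth limits genes of low level most, and with 2 libraries a group a single library decides most calls. Over the settings the list medians of the Hox and proliferation genes, -0.12 each, ran from -0.32 to 0.03 and from -0.17 to 0.05. Other medians that changed sign included those of synaptic adhesion (-0.23, from -0.58 to 0.03) and endothelial genes (0.44, from -0.27 to 1.1). The median of the small leucine-rich proteoglycans (-0.07, from -0.5 to 0.06) did so too. Those of pan-luminal (0.31, from 0.18 to 0.44), adipocyte (-0.41, from -0.53 to -0.39), T-box (-0.40, from -0.50 to -0.27) and pericyte genes (-0.16, from -0.21 to -0.11) kept their sign.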
